A study of Homo sapiens with 3 samples.

Results

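The inhibitors of DNA binding ID1, ID2, ID3 and ID4, the pseudoreceptor gene BAMBI, the inhibitory SMAD genes SMAD6 and SMAD7, the corepressor gene SKIL and the matrix gene TGFBI were examined as response genes of BMP and TGF-beta signalling. All probe sets that the array's annotation assigned to a single one of these 9 genes were taken, which gave 26 of 49395 probe sets. Of the 26, 16 probe sets of 7 genes had a mean log2 intensity over the 3 arrays at or above the median of all probe sets, 7.521, and are called above the filter. The 9 genes were chosen with their differences from control in these same arrays known, so their values are a description and carry no test.

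The cells were Caco-2, an established human colorectal cancer line that can form an enterocyte-like layer. A lentivirus delivered a different short hairpin RNA (shRNA) to each culture: shOCC-1-1 in line 1, shOCC-1-2 in line 2 (both OCC-1 knockdown, n = 2 arrays together) and a non-target shRNA, shCTRL, in the control (n = 1 array). All 3 cultures had the same serum (20%), puromycin selection (1 µg per ml for 5 days) and 24 hours without the drug before total RNA was taken. Each hairpin is represented by 1 transduced population, and nothing in the labels says that any was repeated.

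BMPs and TGF-beta bind pairs of type I and type II serine/threonine kinase receptors, which phosphorylate receptor SMADs. BMP receptors act through SMAD1, SMAD5 and SMAD9, and TGF-beta and activin receptors through SMAD2 and SMAD3. These join SMAD4 and enter the nucleus, where the ID genes are typical BMP targets and SMAD7, SKIL and TGFBI typical TGF-beta targets. Several targets feed back on the pathway: SMAD6 and SMAD7 block the receptors, BAMBI is a receptor-like protein without a kinase domain, and SKIL (SnoN) represses SMAD-driven transcription. In the gut, BMP signals are strongest towards the villus or surface epithelium and restrain the stem cells of the crypt.

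The 250 bases before the RefSeq transcript start (assembly GRCh38.p14) are shown for ID1 and ID2, whose signals lay on opposite sides of control, and for ID3, BAMBI and SMAD6, which carried a SMAD-type motif, as did 8 of the 11 windows of these 9 genes. Each is written 5′ to 3′ on the gene's strand, and capitals mark a motif.
ID1, chr20:31605039-31605288, + strand: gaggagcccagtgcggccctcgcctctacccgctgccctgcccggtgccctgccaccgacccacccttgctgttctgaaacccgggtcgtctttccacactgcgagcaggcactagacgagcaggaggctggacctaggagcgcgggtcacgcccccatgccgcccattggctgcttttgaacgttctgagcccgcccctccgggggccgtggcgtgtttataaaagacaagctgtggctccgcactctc
ID2, chr2:8681806-8682055, + strand: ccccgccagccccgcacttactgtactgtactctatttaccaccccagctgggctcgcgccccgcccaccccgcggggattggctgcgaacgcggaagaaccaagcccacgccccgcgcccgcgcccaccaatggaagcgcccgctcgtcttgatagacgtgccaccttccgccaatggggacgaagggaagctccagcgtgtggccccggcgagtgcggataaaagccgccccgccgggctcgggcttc
ID3, chr1:23559502-23559751, - strand: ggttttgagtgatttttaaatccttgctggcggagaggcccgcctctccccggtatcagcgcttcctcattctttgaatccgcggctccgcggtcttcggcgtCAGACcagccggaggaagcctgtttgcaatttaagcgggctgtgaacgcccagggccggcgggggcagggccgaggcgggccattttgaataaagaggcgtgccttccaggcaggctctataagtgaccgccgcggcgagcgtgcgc
BAMBI, chr10:28677271-28677520, + strand: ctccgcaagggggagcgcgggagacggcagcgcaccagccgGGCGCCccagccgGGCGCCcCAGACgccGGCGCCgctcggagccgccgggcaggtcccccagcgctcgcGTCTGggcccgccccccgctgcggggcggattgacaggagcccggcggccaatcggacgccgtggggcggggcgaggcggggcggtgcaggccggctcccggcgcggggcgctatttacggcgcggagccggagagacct
SMAD6, chr15:66701986-66702235, + strand: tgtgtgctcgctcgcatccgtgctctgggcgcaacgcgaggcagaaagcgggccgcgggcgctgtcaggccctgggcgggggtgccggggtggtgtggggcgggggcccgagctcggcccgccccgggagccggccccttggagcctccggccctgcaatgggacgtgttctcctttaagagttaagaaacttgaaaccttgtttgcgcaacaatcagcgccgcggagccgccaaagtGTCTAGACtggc

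Both strands were searched for 3 motifs that do not overlap in these windows: GGCGCC, a GC-rich element bound by BMP-activated SMADs, CAGAC, the CAGA box bound by SMAD3 and SMAD4, and the palindromic SMAD box GTCTAGAC. The BAMBI window held GGCGCC at 3 places, beginning 209, 196 and 181 bases before the start, and CAGAC on either strand at 189 and 140. GGCGCC occurred in 16.4% and CAGAC in 38.0% of all 35116 windows of this length. The ID3 window had a CAGAC at 147 bases before the start. The SMAD6 window had GTCTAGAC beginning 12 bases before the start, a motif found in 0.182% of windows. The ID1 and ID2 windows had none of the 3 motifs. At least 1 motif was held by windows of 7 of the 9 genes, those not shown being ID4, SKIL, TGFBI and SMAD7, so the motifs are not particular to the windows printed. The share of all windows with any of the 3 motifs was not counted. Nothing is therefore read from these 7 genes or from the 8 of 11 windows. The windows shown held from 62.0% (ID3) to 81.2% (BAMBI) G or C, beside a median of 58.0% over all windows. The part of this in the matches was not tested. A match is a string of letters and not evidence of binding, and the described BMP elements of ID1 lie further upstream than this window.

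Array-wide facts that bear on these values are brief. The median intensity was 182 in line 1, 184 in line 2 and 186 in the control. The targeted transcript, OCC-1 (gene symbol C12orf75), had an intensity of 518 in line 1 and 397 in line 2, against 1219 in the control. Of the colon epithelial markers 9 of 9 lay above the filter, with summed intensities of 37033 and 37233 in lines 1 and 2 and 34899 in the control. They differed in direction. EPCAM read 5602 and 5911 in lines 1 and 2, against 3930 in the control, and FABP1 3027 and 2680, against 3729. KRT20, at 185 and 186 in lines 1 and 2 and 182 in the control, lay at the filter. Above the filter were also 3 of 6 fibroblast, 1 of 4 endothelial and 1 of 4 measured leukocyte markers, the last being LYZ, which Paneth cells also make. The fibroblast markers above it were the collagen genes COL1A1 and COL3A1 and the receptor gene PDGFRB, at 212 to 258.8 in lines 1 and 2, against 255 to 260.1 in the control. The leukocyte markers PTPRC, CD3E and ITGAM and the fibroblast markers COL1A2, DCN and LUM were below the filter. The summed leukocyte signal was 1087 and 957 in lines 1 and 2 and 742 in the control, and its part in the results was not tested. LYZ alone read 740.3 and 606 in lines 1 and 2 and 381 in the control, while the other 3 leukocyte markers summed to 347 and 351 in lines 1 and 2 and 361 in the control. The fibroblast sums were 1129.9 and 1145 in lines 1 and 2 and 1151 in the control, and the endothelial sums 608 and 658 in lines 1 and 2 and 663 in the control. The 23 background control probe sets, graded by 3 to 25 G or C bases per probe, differed from control by log2 -0.37 to 0.06 in line 1 and -0.23 to 0.04 in line 2, lowest in line 1 with 25 such bases. In both lines they lay above control at 3 to 9 such bases and below it at 10 to 25. The base composition of the probes for the 9 genes was not analysed here, and the part of this tilt in their differences was not tested.

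ID1 was lower in both knockdown lines and ID2 was higher. The ID proteins are helix-loop-helix factors without a DNA-binding region, which hold E proteins away from DNA. The main ID1 probe set read 2619.6 in line 1 and 2775 in line 2, against 3693 in the control, or 70.9% and 75.1% of control. Its mean log2 difference was -0.45 ± 0.06 (SD, n = 2 knockdown lines). Over all named probe sets above the filter, 0.348% had a lower difference than this one in line 1 and 1.53% in line 2. A second ID1 probe set read 1227 and 1369 in lines 1 and 2, against 1968 in the control, a mean log2 difference of -0.60 ± 0.11. The third read 2319.6 and 2442 in lines 1 and 2, against 2777 in the control, which is -0.22 ± 0.05, and 5.17% of probe sets were lower than it in line 1 and 15.2% in line 2. On all 3 probe sets line 1 was lowest, line 2 next and the control highest. The third carries the suffix by which the manufacturer marks probes that may match other sequences.

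The brighter ID2 probe set read 4165 in line 1 and 4529 in line 2, against 3396 in the control, a log2 difference of 0.35 ± 0.09 (SD, n = 2 lines). The other ID2 probe set read 3229.7 and 3477 in lines 1 and 2, against 2184 in the control, a difference of 0.62 ± 0.08. Both had the order control, line 1, line 2 from low to high. Both ID2 probe sets bear a suffix for possible matches beyond a single transcript, so neither is certain to read ID2 alone. The difference reached 1.48-fold in line 1 and 1.59-fold in line 2 on the second probe set, but 1.23-fold and 1.33-fold on the brighter one.

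ID3 was slightly lower on each of its 3 probe sets. The brightest read 261 in line 1 and 280.3 in line 2, against 315 in the control. The next read 269 and 261 in lines 1 and 2, against 308 in the control, and the dimmest read 183 and 181 in lines 1 and 2, against 209.8 in the control. Mean log2 differences were -0.22 ± 0.07, -0.22 ± 0.03 and -0.21 ± 0.01 (SD, n = 2 lines). The 3 probe sets thus differed from control by nearly the same amount at intensities close to the filter. The 2 brighter ID3 probe sets bear the same suffix as the third of ID1. ID4 had 4 probe sets, all below the filter, with intensities from 67.5 to 145 over the 3 arrays. Their differences from control ran from -0.07 to 0.03 in line 1 and from -0.02 to 0.11 in line 2, and no level of ID4 can be read from them.

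**Figure D1:**
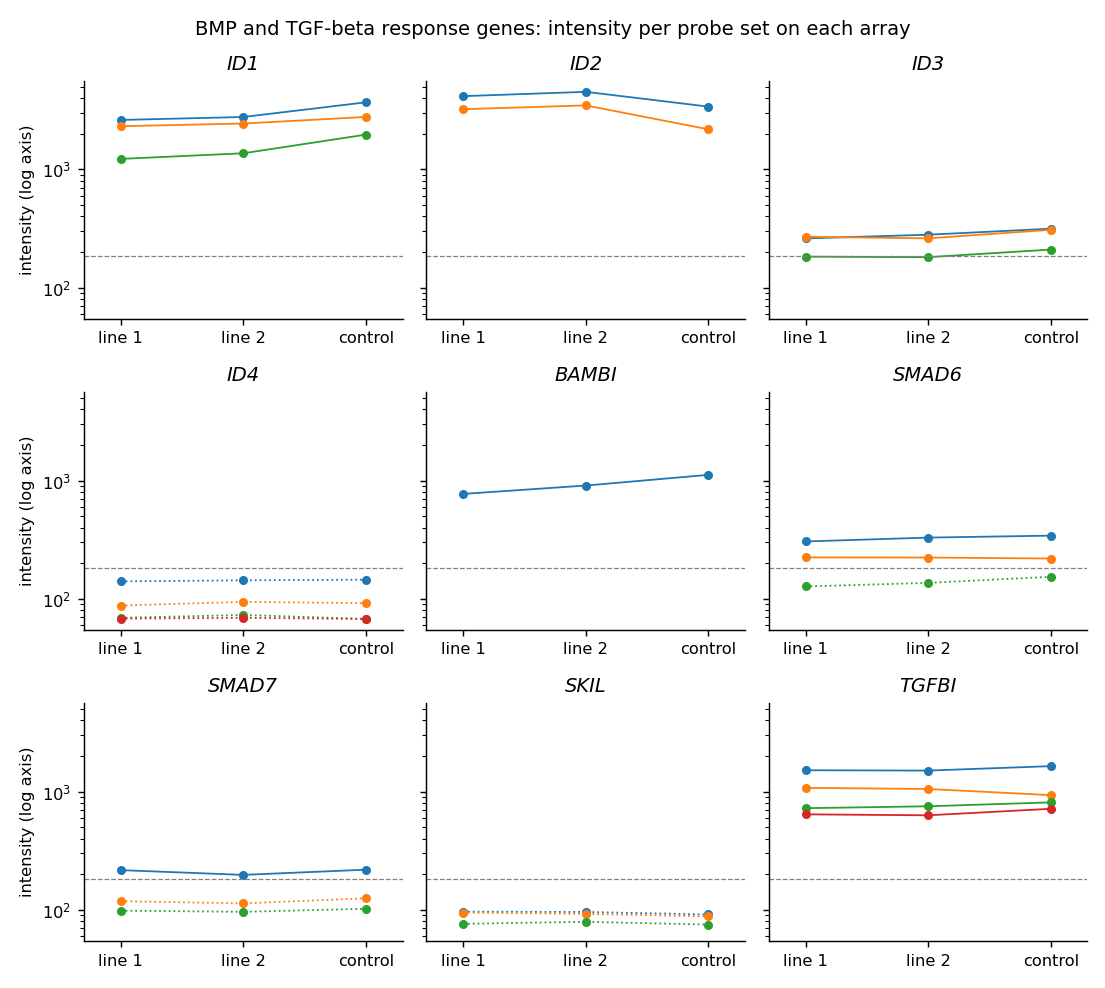
Intensity on a logarithmic axis of every probe set of the 9 genes (colours) on the arrays of line 1, line 2 and the control. Points joined by solid lines are probe sets above the filter and those joined by dotted lines below it, and the dashed line is the filter at an intensity of 183.7. ID1 and BAMBI lie below control in both lines, ID2 above it, and ID4 and SKIL lie under the filter on every array.

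BAMBI was read by 1 probe set, with 771 in line 1 and 907 in line 2, against 1117 in the control. Both lines were below the control, and line 1 was below line 2. On the log2 scale line 1 was at -0.53 and line 2 at -0.30, with a mean of -0.42 ± 0.17 (SD, n = 2 lines). The gap between the lines, 0.23, was larger than that of 96.3% of all named probe sets above the filter, so the 2 hairpins gave less similar values for BAMBI than for the other members. With 1 array per hairpin this gap has no test.

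The inhibitory SMAD genes lay close to control. The brightest SMAD6 probe set read 305 in line 1 and 329 in line 2, against 342 in the control, and a second read 224 and 223 in lines 1 and 2, against 219 in the control. These differ in direction, at -0.11 ± 0.08 and 0.03 ± 0.00 (SD, n = 2 lines). The third, below the filter, lay at -0.27 in line 1 and -0.17 in line 2. The only SMAD7 probe set above the filter read 217 in line 1 and 198 in line 2, against 219 in the control, which is -0.01 and -0.15 on the log2 scale. Its 2 dimmer probe sets, below the filter, were also under control in both lines, by 0.14 at most.

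SKIL had 3 probe sets, all below the filter. Their intensities were 76.2 to 96.7 in line 1 and 79.4 to 96.0 in line 2, against 75.1 to 91.4 in the control. Differences were at most 0.11 in line 1 and 0.08 in line 2, and no level of SKIL can be read from them. TGFBI encodes a secreted matrix protein that was found as a TGF-beta-induced gene. Its brightest probe set read 1517 in line 1 and 1507 in line 2, against 1644 in the control (-0.12 ± 0.01, SD, n = 2 lines). Of the other 3 probe sets 2 were also lower, at -0.14 ± 0.04 and -0.17 ± 0.02, while the remaining one read 1077 and 1053 in lines 1 and 2, against 935 in the control (0.19 ± 0.02). The probe sets of TGFBI therefore disagree in direction, each with almost the same value in both lines. The brightest TGFBI probe set and the discordant probe set bear suffixes for possible matches beyond a single transcript.

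With 1.5-fold as the threshold, in 1 direction and with both hairpins, 0 of the 16 probe sets above the filter were higher and 0 were lower, where 1.41% and 0.11% of 22670 named probe sets passed. In line 1 alone 1 was lower (background 0.163%), the second ID1 probe set at 1.60-fold, and in line 2 alone 1 was higher (1.91%), the second ID2 probe set at 1.59-fold. At 1.3-fold in both lines 2 were lower (0.723%), both of ID1, and 1 was higher (5.5%), of ID2. Below control in both lines by any amount were 12 of the 16 (44.7%), and above it in both 4 (37.8%). The choice of members used these differences, and both lines share the control array, so nothing is read from these shares. The median over the 7 genes, each by its brightest probe set, was -0.16 in line 1 and -0.15 in line 2, beside -0.03 and -0.02 over 11329 genes.

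**Figure D2:**
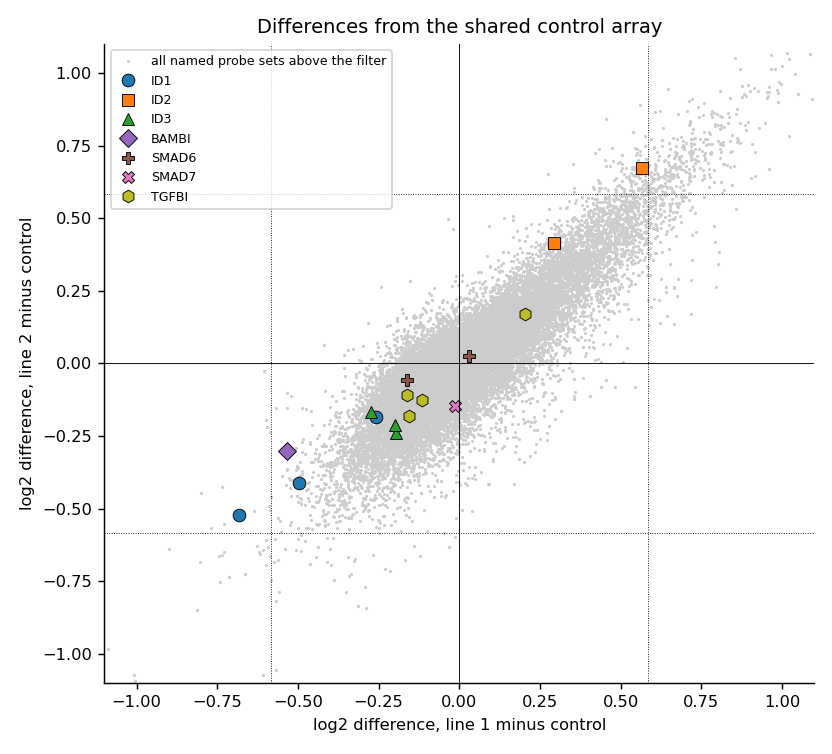
Log2 difference from the control array in line 1 (horizontal) and line 2 (vertical), for all named probe sets above the filter (grey) and the 16 of the response genes (symbols by gene). Dotted lines mark 1.5-fold, and grey points outside the axis range are not drawn. No symbol lies beyond both dotted lines on the same side, ID1 and BAMBI lie towards the lower left and ID2 towards the upper right, and the shared control array ties the 2 axes together.

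The lines themselves can be compared without the control. Among the 16 probe sets, 7 had the order line 1, line 2, control from low to high, 5 the order line 2, line 1, control, and 2 each the orders control, line 1, line 2 and control, line 2, line 1. Line 1 minus line 2 was -0.08, -0.07 and -0.16 for the 3 ID1 probe sets and -0.12 and -0.11 for those of ID2, so line 2 was higher in each. The SD of this difference over all named probe sets above the filter was 0.11. The lines lay further apart than this SD for BAMBI, the second ID1 probe set, the brighter ID2 probe set and SMAD7, where line 1 was higher by 0.13, and nearer than it or equal to it, as rounded, for the other 12. Total RNA of a culture does not tell fewer cells with a transcript from less transcript per cell.

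The genes whose differences lay nearest to those of ID1, by Euclidean distance over the pair of lines, were PNKD (distance 0.0079), SPINK4 (0.0095) and SPRING1 (0.022). PNKD read 1133 in line 1 and 1209.5 in line 2, against 1602 in the control. SPINK4, a serine protease inhibitor secreted by goblet cells, read 215 and 228 in lines 1 and 2, against 305 in the control. In all, 39 genes lay within 0.1 of ID1, where 11329 genes were above the filter. The pattern is thus not particular to ID1, though few genes share it, and it rests on only 3 arrays.

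The rest of the pathway was taken from a list of 102 genes in 7 roles that holds none of the 9. Of these, 96 had a probe set of their own and 70 were above the filter by their brightest probe set. At 1.5-fold in both lines 4 of the 70 were higher and 0 lower, where 1.36% and 0.159% of 11329 genes passed, so the higher share of the list was 5.71%. The list was written with earlier results of these arrays known, those of THBS1, TOB1 and CCN2 among them, so its shares are a description and support nothing. The limma p-values given below, for THBS1, TOB1, CCN2 and the rest of the list, come from these same arrays, so they are a description too. In limma, which set both knockdown arrays against the control, 9 were higher and 1 lower at an adjusted p of 0.05 or less over all genes. That is 12.9% and 1.43%, beside 9.63% and 3.06% of all genes, so by limma the list is near the background in both directions. The limma counts per role below stand beside these same shares of all genes. With 5 to 15 genes above the filter in each role, nothing is read from them. Counts at an unadjusted p have no share of all genes here and are a description only. The median over the 70 was 0.05 in line 1 and 0.01 in line 2. The fit takes the single control array to have the spread of the knockdown arrays, and its p-values rest on the gap between the 2 hairpins' arrays, with 1 residual degree of freedom, moderated by the spread over all genes to 6.96 in total. They hold nothing on how the control would vary. For GDF15, TWSG1, TGFBR1, ACVR1, TOB1, LEMD3, KLF10 and CCN2 the brightest probe set bears a suffix for possible matches beyond a single transcript. The other probe sets of TOB1 and KLF10 bear it too. So do the brightest probe sets of SMAD2, SMAD3, SMAD5, CDKN1A, TCF12, TCF4 and HES1, described further below. None of these is certain to read its gene alone.

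Among ligands 1 of 9 fell by limma. GDF15, a distant member of the family that is induced by cell stress, read 758 in line 1 and 687 in line 2, against 992 in the control (-0.46 ± 0.09 SE, limma adjusted p = 0.019). Its 2 other probe sets above the filter were lower too, with medians of -0.27 (line 1) and -0.54 (line 2). Averaged over all its probe sets, the limma adjusted p was 0.072. BMP4 read 1745 and 1799.6 in lines 1 and 2, against 2013 in the control, and BMP7 read 1191 and 1213 in lines 1 and 2, against 1059.7 in the control. Both are BMP ligands and neither passed (limma adjusted p = 0.15 for each).

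Among ligand antagonists and latency proteins 1 of 9 rose. TWSG1, a secreted BMP-binding protein that works with chordin, read 788 in line 1 and 821 in line 2, against 453 in the control. That is 1.74-fold and 1.81-fold higher (0.83 ± 0.08 SE, limma adjusted p = 0.0044). A second TWSG1 probe set read 524 and 537 in lines 1 and 2, against 298 in the control, which is 1.76-fold and 1.80-fold higher, so 2 of 2 above the filter passed 1.5-fold. SOSTDC1 and CHRDL2, further secreted antagonists, lay at -0.14 and -0.13 and did not pass.

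Of the receptors 2 of 12 rose. TGFBR1, the type I receptor of TGF-beta, read 1183 in line 1 and 1096 in line 2, against 815 in the control (0.48 ± 0.08 SE, limma adjusted p = 0.014). ACVR1, a type I receptor used by BMPs, read 305 and 275 in lines 1 and 2, against 216 in the control (0.43 ± 0.09 SE, limma adjusted p = 0.026). Only 1 of the 4 ACVR1 probe sets was above the filter. Those below the filter lay at 0.37, -0.08 and -0.07 in line 1 and, in the same order, 0.26, 0.03 and -0.11 in line 2. With the mean of all its probe sets TGFBR1 had a limma adjusted p of 0.15, and its 2 others lay below the filter. TGFBR3, the co-receptor betaglycan, read 483 and 416 in lines 1 and 2, against 521 in the control, and did not pass (limma adjusted p = 0.20).

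None of the 5 SMAD genes above the filter passed limma, with 1 at an unadjusted p under 0.05, and 0 reached 1.5-fold in both lines. That gene was SMAD2, a receptor SMAD of TGF-beta, at 342 in line 1 and 323 in line 2, against 274 in the control (limma adjusted p = 0.064). It passed with no filter (limma adjusted p = 0.035) and after cyclic loess normalization (0.033). It did not pass with the mean of all probe sets (limma adjusted p = 0.10), background subtraction (0.072) or an eBayes trend (0.063). SMAD5, a receptor SMAD of BMPs, depended on the probe set. Its brightest read 1793 and 1832 in lines 1 and 2, against 1809.6 in the control, while the 4 others above the filter had medians of 0.56 (line 1) and 0.57 (line 2). With the mean of all its probe sets SMAD5 was higher by 0.41 (limma adjusted p = 0.014). SMAD3 and SMAD4 lay at 0.01 and 0.06 by their brightest probe sets. That of SMAD4 was at -0.06 in line 1 and 0.18 in line 2. Its 5 others above the filter had medians of 0.25 (line 1) and 0.20 (line 2). Of all 6, 3 were higher than control in both lines and 1 was lower in both. With the mean of all its probe sets SMAD4 was at 0.11 (limma adjusted p = 0.25).

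**Figure D3:**
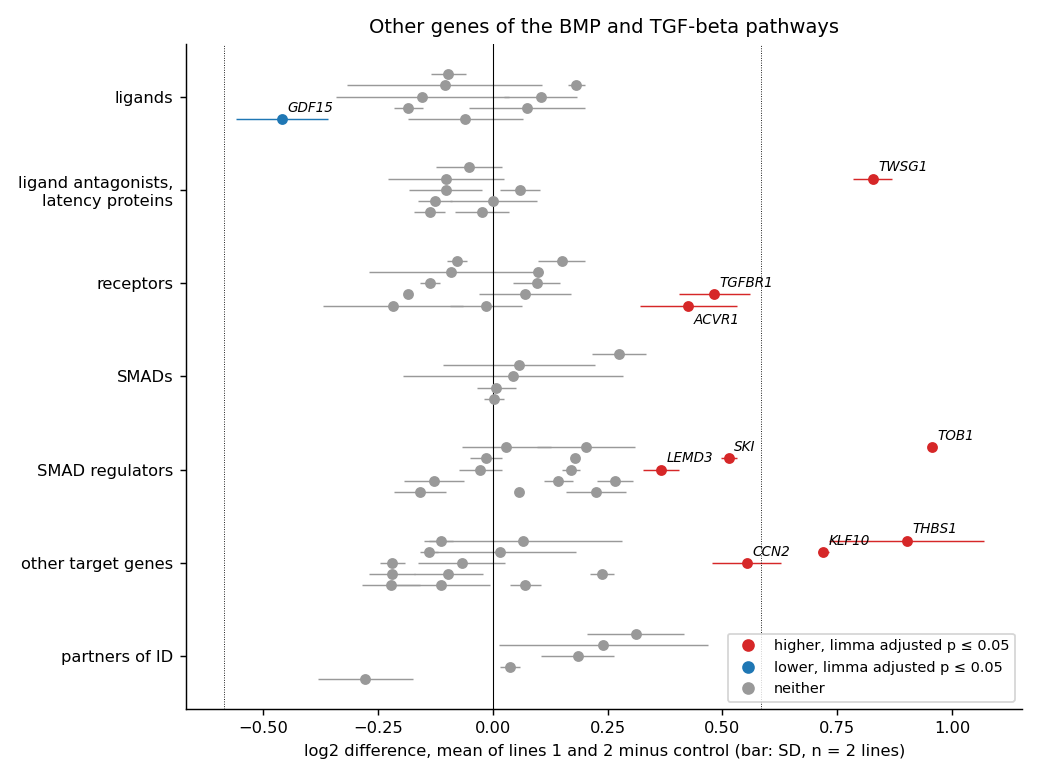
Log2 difference from control, as the mean of lines 1 and 2 with the SD of the 2 lines as a bar, for the 70 other pathway genes above the filter, each by its brightest probe set and grouped by role. Red and blue mark genes higher and lower by limma, grey the rest, and dotted lines 1.5-fold. TOB1, THBS1, TWSG1 and KLF10 lie beyond 1.5-fold on the high side, and GDF15 is the only gene marked lower.

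Regulators of SMADs had 3 of 15 higher. TOB1, an antiproliferative protein reported to bind SMADs, read 2572 in line 1 and 2557 in line 2, against 1322 in the control (0.96 ± 0.07 SE, limma adjusted p = 0.0030). Its other probe set was at 0.30 in line 1 and 0.07 in line 2. SKI, the corepressor related to SKIL, read 1104 and 1085 in lines 1 and 2, against 766 in the control (0.51 ± 0.07 SE, limma adjusted p = 0.0093), and 3 of its 3 probe sets above the filter were higher in both lines. LEMD3, a protein of the inner nuclear membrane that binds receptor SMADs, read 1299 and 1250.2 in lines 1 and 2, against 989 in the control (0.37 ± 0.08 SE, limma adjusted p = 0.025). With the mean of all its probe sets LEMD3 was at 0.06 (limma adjusted p = 0.51).

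Other target genes had 3 of 15 higher. KLF10, first described as a TGF-beta-inducible early gene, read 505 in line 1 and 511 in line 2, against 308 in the control (0.72 ± 0.07 SE, limma adjusted p = 0.0049). Its second probe set read 478 and 472 in lines 1 and 2, against 284 in the control, so that 2 of 2 were beyond 1.5-fold in both lines. THBS1, a matrix protein that can activate latent TGF-beta, read 518 and 439 in lines 1 and 2, against 255 in the control (0.90 ± 0.11 SE, limma adjusted p = 0.0056). Its 2 others above the filter had medians of 0.08 (line 1) and -0.15 (line 2), and averaged over all its probe sets THBS1 had a limma adjusted p of 0.26. CCN2, a matricellular growth factor target, read 329 and 354 in lines 1 and 2, against 232 in the control (0.55 ± 0.08 SE, limma adjusted p = 0.0101). Only 1 of the 3 CCN2 probe sets was above the filter. Those below it lay at 0.27 and 0.02 in line 1 and, in the same order, 0.32 and 0.16 in line 2. With the mean of all its probe sets CCN2 was at 0.31 (limma adjusted p = 0.037). MSX1, a homeobox target of BMPs, read 577 and 542 in lines 1 and 2, against 652 in the control, and CDKN1A, the cell cycle inhibitor p21, read 409 and 429 in lines 1 and 2, against 487 in the control. Neither passed (limma adjusted p = 0.11 for each).

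The partners of ID proteins and related factors had 0 of 5 past limma, with 1 higher and 1 lower at an unadjusted p under 0.05, and 0 past 1.5-fold in both lines. TCF12, an E protein bound by IDs, read 533 in line 1 and 480.0 in line 2, against 408 in the control (0.31 ± 0.09 SE, limma adjusted p = 0.064), and passed with no filter (0.024) and after cyclic loess (0.029). TCF12 did not pass after background subtraction (limma adjusted p = 0.088) or with an eBayes trend (0.058). Its 2 other probe sets above the filter had medians of 0.55 (line 1) and 0.43 (line 2). ASCL2, a factor of intestinal stem cells, read 636 and 575 in lines 1 and 2, against 733 in the control (-0.28 ± 0.09 SE, limma adjusted p = 0.084), and passed with no filter (0.042). ASCL2 did not pass with the mean of all probe sets (limma adjusted p = 0.067) or after cyclic loess (0.069). Nor did it after background subtraction (limma adjusted p = 0.12) or with an eBayes trend (0.079). HES1, a Notch target, lay at 0.04.

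**Figure D4:**
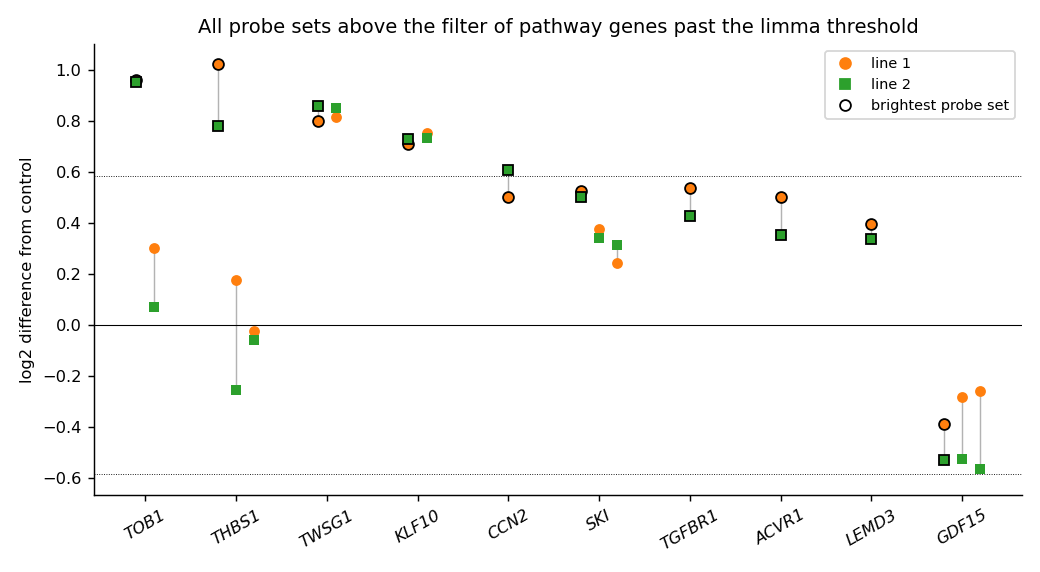
Log2 difference from control in line 1 (circles) and line 2 (squares) for every probe set above the filter of the 10 pathway genes past the limma threshold, with the brightest of each gene outlined in black and dotted lines at 1.5-fold. The probe sets of TWSG1 and KLF10 lie together beyond 1.5-fold, while the other probe sets of THBS1 and TOB1 lie far below the brightest of their gene.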

How the data were processed

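Total RNA of 3 Caco-2 cultures was labelled with biotin as cRNA and hybridised to oligonucleotide arrays, 1 array per culture, per the labels' protocols. The authors' deposited values are 1 linear intensity per probe set and array. RMA is named in the submitters' processing notes, while its version, background step and scaling are not given in the sources used here. Intensities were converted to log2 with no further normalization. Background control probe sets kept intensities of 51.3 to 2307 in the control, so background appears to remain, which would shrink fold differences, and the number of arrays limits the precision.

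Gene names came from the platform's annotation, and symbols were looked up by identifier in RefSeq (GRCh38.p14): 44988 had 1 symbol, 1832 several, 2473 none, and 102 were array controls. The filter kept probe sets with a mean log2 of 7.521 or more, and genes were read by their brightest probe set. The size rule was 1.5-fold the same way in both lines. limma 3.58.1 (R 4.3.3; lmFit, eBayes, Benjamini-Hochberg over 11329 genes, 1 residual degree of freedom) was used for genes outside the 9 only. Groups came from the genotype label. The members and the gene lists were chosen with earlier results of these data known. Named were all members, OCC-1, per role the pair highest and the pair lowest in mean difference, every gene past either rule, and the 3 genes nearest to ID1, not all of which are described in full. Promoters came from RefSeq, and Python 3.11.15 with pandas 2.3.3 was used for the rest.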

Additional observations from a re-analysis of the deposited data

How the results depend on the processing

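With 1 control array and 1 array per hairpin, the spread of the control is unknown and no difference of a single line has a test. No paired analysis was possible because the control has a single array. Of the alternatives, a threshold of 1.3-fold gave 1 higher and 2 lower probe sets of the response genes in place of 0 and 0, 7 higher and 1 lower of the other pathway genes in place of 4 and 0, and 602 and 106 of all genes in place of 154 and 18. At 2-fold 0 other pathway genes were higher, and 8 higher and 4 lower of all genes passed. With the mean of all probe sets 2 other pathway genes were higher by size, and 44 and 9 of all genes were higher and lower. Subtracting each array's 1st percentile gave 256 and 32. Leaving out either hairpin gave 0 to 1 higher and 0 to 1 lower probe sets of the response genes, and 24 to 46 lower genes in all, the 46 being without line 1. The median of the response genes was -0.12 over the mean of both lines, -0.16 with the mean of all probe sets, -0.14 after background subtraction, and -0.16 to -0.15 without either line. By limma 7 to 12 other pathway genes were higher over 5 alternatives in place of 9, with 12 under no filter and 12 under cyclic loess. By limma 2 other pathway genes were lower with no filter, and 0 with the mean of all probe sets, where 7 had an unadjusted p under 0.05 and 0 passed 1.5-fold. The mean differences of ID1, ID3, BAMBI, SMAD6, SMAD7 and TGFBI stayed below 0 and that of ID2 above 0 under every alternative run. ID1 lay between -0.50 and -0.41 and ID2 between 0.29 and 0.49. These genes were chosen with their differences known, and every alternative reused the same control array. The kept signs are therefore a description and no evidence of robustness. For BAMBI, with 1 probe set, the mean of all probe sets is the same value. The cause of the shifts between settings was not tested.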

Other observations

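TCF4, an E protein that ID proteins bind, differed between the hairpins, and was singled out after its values were seen. Its brightest probe set read 1006 in line 1 and 805 in line 2, against 762 in the control. All 9 TCF4 probe sets above the filter were higher than control in both lines, and 9 of 9 were higher in line 1 than in line 2. The 8 besides the brightest had medians of 0.31 (line 1) and 0.14 (line 2). The limma adjusted p of the brightest, with both lines as a group, was 0.25. The difference between the lines was not tested, since each has 1 array.

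SMAD5 was also singled out after its values were seen. Of its 5 probe sets above the filter 2 were at least 1.5-fold higher in both lines and 4 were higher than control in both, while the brightest was not. One of the 2 read 623 in line 1 and 648 in line 2, against 382 in the control, and the other 612 in line 1 and 613 in line 2, against 392 in the control. The transcript parts that the probe sets read were not analysed here.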
